A study of Homo sapiens and Mus musculus with 8 samples.

Results

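This account covers 39 genes of glycolysis and of the response to low oxygen in melanoma cells. The genes were given as a list of symbols and were looked up, regardless of letter case, in 5 tables of comparisons that the authors made. Of the 39, 37 had a row in each of the 3 mouse tables, which held 14648, 14821 and 15041 usable rows, and 1 had a row in each of the 2 human tables, which held 420 rows each. Ldhb and Slc16a3 had no row and were not analysed here.

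RNA-seq had been done on 8 samples of 3 melanoma lines, with 1 sample per group in the labels. B16N is a mouse line of wild-type genotype, per the labels, and was sampled after UV exposure of 2 weeks and of 5 weeks, as an Orai1 overexpressing clone, and untreated at day 0 as the control. The clone was grown from B16N transfected with CFP-tagged wild-type Orai1, the pore subunit of a plasma membrane Ca2+ channel, selected with G418 and sorted, and it was labelled day 0 like the control. Orai1 had no row in the mouse tables used here, so its level in the clone was not checked. The human lines WM983 and UACC257 were each sampled after UV and untreated at day 0. The growth conditions in the labels are those of B16N, and none are given for the human lines. The human UV samples carry UV3 in the title and week 2 as their time, while the names of the human tables carry UV2, so table and sample title do not match there. The study asked how UV exposure, and more of a Ca2+ entry channel, alter melanoma cells.

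Glycolysis turns glucose into pyruvate in the cytosol, and many tumours run it at a high rate and reduce the pyruvate to lactate. When oxygen is scarce, prolyl hydroxylases of the Egln family no longer mark the transcription factor subunit Hif1a for destruction. The stabilised factor then raises genes for glucose uptake, most glycolytic steps, the block of pyruvate entry into mitochondria, mitophagy, acid balance and blood vessel growth. Hif1a protein, which these data do not measure, is the main point of control.

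The mouse values below are log2 changes of the treated sample over the B16N control in the authors' deposited table of that comparison, turned in sign because the deposited values have the control on top. The standard error (SE) is the deposited log2 value divided by the deposited test statistic. A value followed by an SE is such a log2 change or, where named so, a difference of 2 of them. A gene was called when its deposited p-value, adjusted by the Benjamini-Hochberg method over all usable rows of the table, was under 0.05. The tables hold no level or count of any sample, so values per sample cannot be shown, the depth is unknown, and no difference has a replicate check. With 1 library per group, a p compares those libraries and not the conditions. In bulk RNA, fewer cells of a type and less RNA per cell cannot be told apart. UV samples were labelled week 2 or week 5 and the control day 0, so UV and time in culture cannot be told apart. For the clone, Orai1 cannot be told apart from transfection, G418 selection, sorting and growth as a clone.

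Some members shared their log2 value, statistic and p to the last digit with an unrelated symbol, and to which of the 2 genes such values belong cannot be told. In all 3 mouse tables Vegfa had the values of Vwf, Slc16a1 those of Sos1, Pgam1 those of Trp53inp2, Bnip3l those of Tmem179b, Eno2 those of Polr3c, Slc2a3 those of Mtmr3 and Pfkl those of 2610301B20Rik. In the 5-week table Pfkm also had the values of Gm14399, and Car9 those of 5 other symbols. Such sharing touched 28.9%, 29.3% and 29.1% of the rows of the 2-week, 5-week and clone tables. The counts below cover the 30, 28 and 30 members with values of their own, and the members with shared values are given apart.

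**Figure D1:**
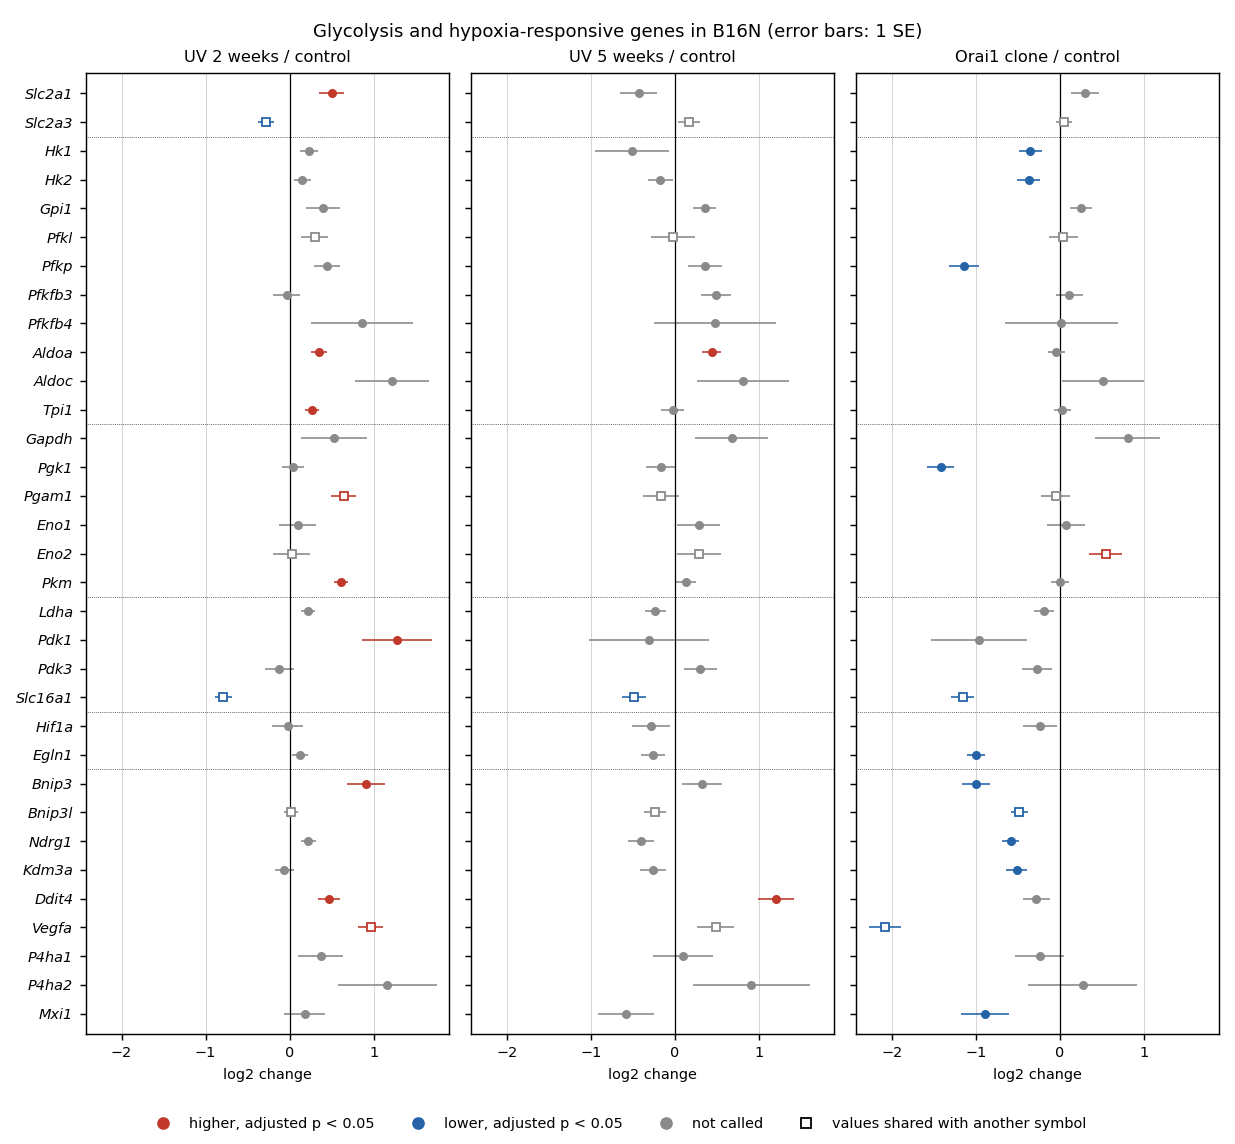
The log2 change of each listed gene over the B16N control is plotted on the x axis for UV at 2 weeks (left), UV at 5 weeks (middle) and the Orai1 clone (right), with bars of 1 SE, dotted lines between roles, and open squares for values shared with another symbol. Called members with values of their own lie to the right of 0 at 2 weeks (7 drawn) and 5 weeks (2) and to the left in the clone (9), and values with an SE above 1, Car9 at 2 weeks among them, are left out.

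After 2 weeks of UV, 8 of 30 members (26.7%) were called higher and none lower, against 3.71% and 5.28% of all 10415 genes with values of their own. With no adjustment, 15 members were higher and 0 lower at p under 0.05. Here and below, the share of all genes without adjustment was not computed, so the unadjusted counts only describe the listed genes. The median log2 change of the members was 0.31, beside 0.02 for all these genes, and 25 of 30 values were above 0 (83.3%, against 52.2% of all genes). The members were measured with a smaller SE than most genes (median 0.18, against 0.25). Among genes of SE at most 0.5, 7 of 24 members were called higher (29.2%), beside 4.96% of 7658 genes, with the adjustment over the whole table kept. With p-values adjusted anew over the rows of that SE, 9 were called higher.

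The called members stood at several steps of the pathway. Slc2a1, the glucose transporter of most proliferating cells, rose 1.41-fold by the authors' deposited table (log2 0.50, SE 0.15, adjusted p = 0.0193). Aldoa, the aldolase that splits the 6-carbon sugar, rose by 0.35 (SE 0.096, adjusted p = 0.00672) and Tpi1, which interconverts its products, by 0.27 (SE 0.082, adjusted p = 0.0164) according to the authors' deposited table. Pkm, the pyruvate kinase of the closing step, rose 1.53-fold by the authors' deposited table (log2 0.61, SE 0.082) and had the lowest adjusted p among the members with values of their own (4.93e-11). Pdk1, a kinase that switches off the pyruvate dehydrogenase complex, rose 2.42-fold by the authors' deposited table (log2 1.28, SE 0.41, adjusted p = 0.0311). The called members of glucose uptake and glycolysis thus rose less than 2-fold, and Pdk1 rose by more.

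Among the targets of the oxygen response, Bnip3, a receptor for the removal of mitochondria, rose 1.88-fold by the authors' deposited table (log2 0.91, SE 0.23, adjusted p = 0.00166). Ddit4, an inhibitor of mTORC1 signalling that also responds to other stresses, rose 1.39-fold by the authors' deposited table (log2 0.47, SE 0.13, adjusted p = 0.0093). Car9, a cell surface carbonic anhydrase that few normal cells express, was called higher by the authors' deposited table (adjusted p = 6.25e-04). With an SE of 1.3 and a 95% interval of the log2 change running from 3.04 to 8.11, its fold is poorly fixed.

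Of the other 22 members at 2 weeks, Pfkp, the platelet-type phosphofructokinase, stood at 0.45 (SE 0.16, adjusted p = 0.0557) and Aldoc, another aldolase, at 1.22 (SE 0.44, adjusted p = 0.066) by the authors' deposited table. The new adjustment over rows of SE at most 0.5 added a call for Pfkp and for Aldoc, and Pfkp was also called when the median of precise rows was set to 0. Ldha, the lactate dehydrogenase subunit that favours lactate, stood at 0.22 (SE 0.085, adjusted p = 0.0971) and Ndrg1, a gene induced by low oxygen and by iron loss, at 0.22 (SE 0.086, adjusted p = 0.0964) by the authors' deposited table. The hexokinase genes Hk1 and Hk2 stood at 0.23 (SE 0.11) and 0.15 (SE 0.10), and Pgk1, phosphoglycerate kinase, at 0.04 (SE 0.13) by the authors' deposited table. Hif1a itself stood at -0.02 (SE 0.19) and Egln1, the main oxygen-sensing hydroxylase, at 0.12 (SE 0.095) by the authors' deposited table, with neither called.

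Members with shared values went both ways at 2 weeks. The values under Vegfa, the vessel growth factor, were 0.96 (SE 0.15, adjusted p = 1.05e-08) and those under Pgam1, phosphoglycerate mutase, 0.64 (SE 0.15, adjusted p = 6.57e-04) by the authors' deposited table. The values under Slc16a1, a lactate and proton exporter, were -0.79 (SE 0.11, adjusted p = 2.86e-11) and those under Slc2a3, a high-affinity glucose transporter, -0.28 (SE 0.091, adjusted p = 0.0317) by the authors' deposited table. Those under Pfkl, Eno2 and Bnip3l were not called.

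After 5 weeks of UV, 2 of 28 members (7.14%) were called higher and none lower, where 3.53% and 1.98% of 10482 genes were. With no adjustment, 4 members were higher and 1 lower at p under 0.05. Ddit4 rose 2.30-fold by the authors' deposited table (log2 1.20, SE 0.21, adjusted p = 2.88e-06). Aldoa rose 1.36-fold by the authors' deposited table (log2 0.44, SE 0.11, adjusted p = 0.00495). These were the 2 members called at both UV times, and both comparisons share the 1 control library. The share of all genes called at both times was not computed. The median log2 change was 0.16, or 0.04 among the 22 members of SE at most 0.5, beside 0.01 for all genes and 0.22 for 10 commonly stable genes, of which 0 were called and 2 were higher without adjustment. Tfrc, one of these stable genes, is also on the list of other hypoxia-responsive genes examined below.

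The remaining values at 5 weeks lay on both sides of 0. Slc2a1 stood at -0.43 (SE 0.22, adjusted p = 0.387) and Ndrg1 at -0.40 (SE 0.15, adjusted p = 0.127) by the authors' deposited table. Pfkfb3, which makes the activator of phosphofructokinase, stood at 0.49 (SE 0.18, adjusted p = 0.113) and Gpi1, glucose phosphate isomerase, at 0.36 (SE 0.14, adjusted p = 0.131) by the authors' deposited table. Bnip3 was at 0.32 (SE 0.24), Pkm at 0.14 (SE 0.12) and Pdk1 at -0.31 (SE 0.72) by the authors' deposited table. The values under Slc16a1 were again below 0 (-0.49, SE 0.14, adjusted p = 0.0192), and those under Vegfa were 0.49 (SE 0.22, adjusted p = 0.256) by the authors' deposited table. Of the 15 listed markers of immune, vessel, skin and connective tissue cells, 6 had a row at 5 weeks and 1 had values of its own, the myeloid gene Lyz2, which rose by 3.47 (SE 0.70, adjusted p = 6.84e-05) according to the authors' deposited table. Lyz2 stood at 0.38 at 2 weeks (SE 0.94) by the authors' deposited table, 6 of the 15 markers (Adgre1, Cdh5, Krt5, Pdgfra, Col1a2 and Dcn) had no row in any mouse table, and the part of such cells in these changes was not tested. All 7 listed pigment cell markers had rows, and 6 had values of their own. Where 3.71% and 3.53% of all genes were called higher, 4 of the 6 were at 2 weeks and 5 at 5 weeks. At 2 weeks these were Tyr (0.95, SE 0.099), Dct (0.72, SE 0.081), Pmel (0.70, SE 0.075) and Tyrp1 (0.39, SE 0.084) by the authors' deposited table. At 5 weeks they were Tyr (1.32, SE 0.15), Dct (0.85, SE 0.15), Pmel (0.75, SE 0.15), Mlana (0.53, SE 0.13) and Tyrp1 (0.36, SE 0.11) by the authors' deposited table. The remaining marker, Sox10, had values shared with another symbol, and these went the other way at 5 weeks. There they were called lower, at -0.60 from the authors (SE 0.15, adjusted p = 0.00212). At 2 weeks the values under Sox10 were 0.02 from the authors (SE 0.097) and were not called.

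The changes at the 2 UV times were set against each other with a normal test of their difference, in which a control value common to both cancels. Of 28 members, 3 were called lower at 5 than at 2 weeks (10.7%) and none higher, where 1.44% and 2.31% of 10166 genes were. With no adjustment, 5 were lower and 2 higher. Slc2a1 was lower at 5 weeks by a difference of -0.93 (SE 0.27, adjusted p = 0.0202), with -0.43 at 5 weeks and 0.50 at 2 weeks by the authors' deposited tables. For Ndrg1 the difference was -0.63 (SE 0.18, adjusted p = 0.0144), with -0.40 at 5 weeks and 0.22 at 2 weeks from the authors. Pkm had a difference of -0.47 (SE 0.15, adjusted p = 0.0374), with 0.14 at 5 weeks and 0.61 at 2 weeks from the authors.

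For other members called at 2 weeks the 2 times were not told apart. The Bnip3 difference was -0.58 with a 95% interval from -1.23 to 0.06, and the Pdk1 difference was -1.58 with an interval from -3.21 to 0.04. Ddit4 ran the other way, with a difference between the authors' values of 0.73 (SE 0.25, adjusted p = 0.0808) and an interval from 0.24 to 1.23 before adjustment. Aldoa differed by 0.09, and its interval ran from -0.20 to 0.39.

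In the Orai1 clone, 9 of 30 members (30%) were called lower and none higher, against 13.9% and 12% of 10659 genes. With no adjustment, 9 members were lower and 2 higher at p under 0.05. The median log2 change was -0.24, beside 0.03 for all genes, and 18 of 30 values were below 0. Among genes of SE at most 0.5, 9 of 23 members (39.1%) and 18.2% of 7708 genes were called lower. Many genes changed in the clone, so the share of members called lower exceeds the background by a smaller factor than the share called higher did at 2 weeks.

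Falls in the clone were found in glycolytic enzymes and in oxygen response genes. Pgk1, the enzyme of the earlier ATP-forming step, fell 2.67-fold by the authors' deposited table (log2 -1.42, SE 0.16, adjusted p = 3.87e-17). Pfkp, at the committed step, fell 2.21-fold by the authors' deposited table (log2 -1.14, SE 0.18, adjusted p = 2.39e-09). Hk1 and Hk2, which trap glucose as its phosphate, fell by 0.35 (SE 0.13, adjusted p = 0.0386) and 0.37 (SE 0.14, adjusted p = 0.0344) according to the authors' deposited table, and neither was called when the median of precise rows was set to 0. Several other glycolytic enzymes stood near 0, with Aldoa at -0.04 (SE 0.10), Tpi1 at 0.03 (SE 0.097), Eno1, an enolase, at 0.07 (SE 0.23) and Pkm at 0.00 (SE 0.10) by the authors' deposited table. Gapdh, the dehydrogenase of the middle of the pathway, stood at 0.81 (SE 0.39, adjusted p = 0.135) by the authors' deposited table. Gpi1 stood at 0.25 (SE 0.13, adjusted p = 0.161), Aldoc at 0.52 (SE 0.49) and Ldha at -0.19 (SE 0.12) by the authors' deposited table. Gapdh and Gpi1 were the members higher without adjustment. Of 10 commonly stable genes, 2 were called higher and 1 lower in the clone, where 12% and 13.9% of all genes were. They were the cyclophilin gene Ppia (1.10, SE 0.23), Sdha (0.30, SE 0.11) and Eef1a1 (-0.28, SE 0.098) by the authors' deposited table.

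Egln1 fell 2.00-fold in the clone by the authors' deposited table (SE of the log2 change 0.11) and had the lowest adjusted p among members with values of their own (3.54e-18). Bnip3 fell 2.01-fold by the authors' deposited table (SE of the log2 change 0.17, adjusted p = 3.99e-08). Ndrg1 fell by 0.59 (SE 0.10, adjusted p = 4.50e-07) and Kdm3a, a histone demethylase gene that low oxygen induces, by 0.52 (SE 0.13, adjusted p = 5.82e-04) according to the authors' deposited table. Mxi1, an antagonist of Myc, fell as well by the authors' deposited table (log2 -0.89, SE 0.28, adjusted p = 0.0107). Ddit4 stood at -0.28 (SE 0.16), Hif1a at -0.24 (SE 0.20) and Pdk1 at -0.96 (SE 0.57) by the authors' deposited table, and none of them was called. Bnip3 was the 1 member called at 2 weeks and in the clone, in opposite directions. For all genes the share called in both was not computed, so whether this overlap is small cannot be told.

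The shared values in the clone were lowest under Vegfa, at -2.09 (SE 0.19, adjusted p = 4.90e-26) by the authors' deposited table. Those under Slc16a1 were -1.16 (SE 0.14, adjusted p = 1.04e-15) and those under Bnip3l, a relative of Bnip3, -0.48 (SE 0.10, adjusted p = 2.73e-05) by the authors' deposited table. Those under Eno2, the neuronal enolase, were 0.54 by the authors' deposited table (SE 0.20, adjusted p = 0.0311). Of 6 pigment cell markers in the clone, 2 were higher, Pmel (0.92, SE 0.098) and Mlana (0.50, SE 0.11), and 1 was lower, Dct (-0.61, SE 0.092), by the authors' deposited table, where 12% and 13.9% of all genes were. The shared values under Sox10 in the clone were -0.24 (SE 0.11) by the authors' deposited table and were not called. Lyz2 was higher there as well by the authors' deposited table (2.78, SE 0.64, adjusted p = 1.77e-04), as the single marker of another cell type with values of its own, and its part in the result was not tested.

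The clone and the UV samples were compared with one another in the same way. Of 30 members, 13 were called lower in the clone than after 2 weeks of UV (43.3%) and none higher, against 7.98% and 5.25% of 10218 genes, and without adjustment 14 were lower and 0 higher. The members had a smaller median SE than all genes in each comparison with the control (0.17 against 0.25 in the clone). For the differences between samples, the share among genes of like SE was not computed. Computed from the authors' values, the lowest adjusted p belonged to Egln1 (difference -1.13, SE 0.14, adjusted p = 7.70e-13), Pgk1 (-1.46, SE 0.21, adjusted p = 1.56e-10), Bnip3 (-1.91, SE 0.28, adjusted p = 6.68e-10) and Pfkp (-1.59, SE 0.24, adjusted p = 1.23e-09). The other 9 ran from -2.24 for Pdk1 (SE 0.71, adjusted p = 0.0162 from the authors' values) to -0.39 for Aldoa (SE 0.14, adjusted p = 0.0437). Between these lay the differences of the oxygen response genes Mxi1 (-1.07, SE 0.38), Ndrg1 (-0.81, SE 0.14) and Ddit4 (-0.75, SE 0.21). The remaining 4 were differences of glycolytic enzymes, Pkm (-0.61, SE 0.13), Hk1 (-0.59, SE 0.17), Hk2 (-0.53, SE 0.17) and Ldha (-0.41, SE 0.15). Slc2a1 was not among them, with a difference of -0.20 and a 95% interval from -0.64 to 0.25.

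Set against 5 weeks of UV, 6 of 28 members were called lower in the clone (21.4%) and none higher, where 4.69% and 1.49% of 10278 genes were, and without adjustment 7 were lower and 1 higher. They were Pfkp (difference -1.50, SE 0.27), Ddit4 (-1.48, SE 0.27), Bnip3 (-1.33, SE 0.29), Pgk1 (-1.26, SE 0.24), Egln1 (-0.74, SE 0.18) and Aldoa (-0.48, SE 0.15), all of which were also called against 2 weeks. The member that was higher without adjustment was Slc2a1 (difference between the authors' values 0.73, SE 0.28, adjusted p = 0.108). Ndrg1 was not called here (-0.19, 95% interval from -0.55 to 0.18).

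**Figure D2:**
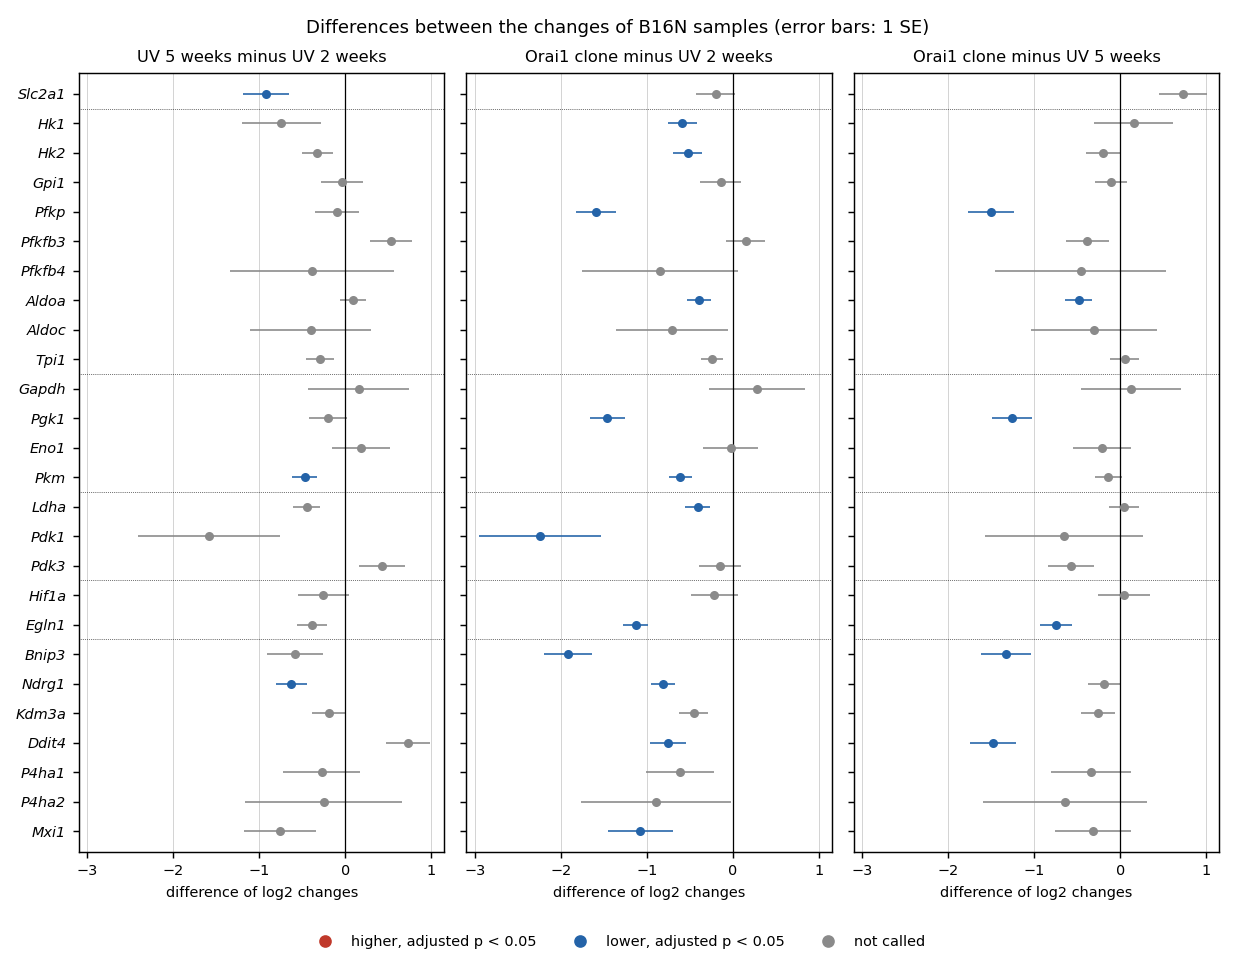
The difference between the log2 changes of 2 B16N samples is plotted on the x axis for each listed gene with values of its own, as UV at 5 minus 2 weeks (left), the Orai1 clone minus UV at 2 weeks (middle) and the Orai1 clone minus UV at 5 weeks (right), with bars of 1 SE. All called differences lie to the left of 0, 3 in the left panel, 13 in the middle and 6 in the right, and values with an SE above 1 are left out.

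**Figure D3:**
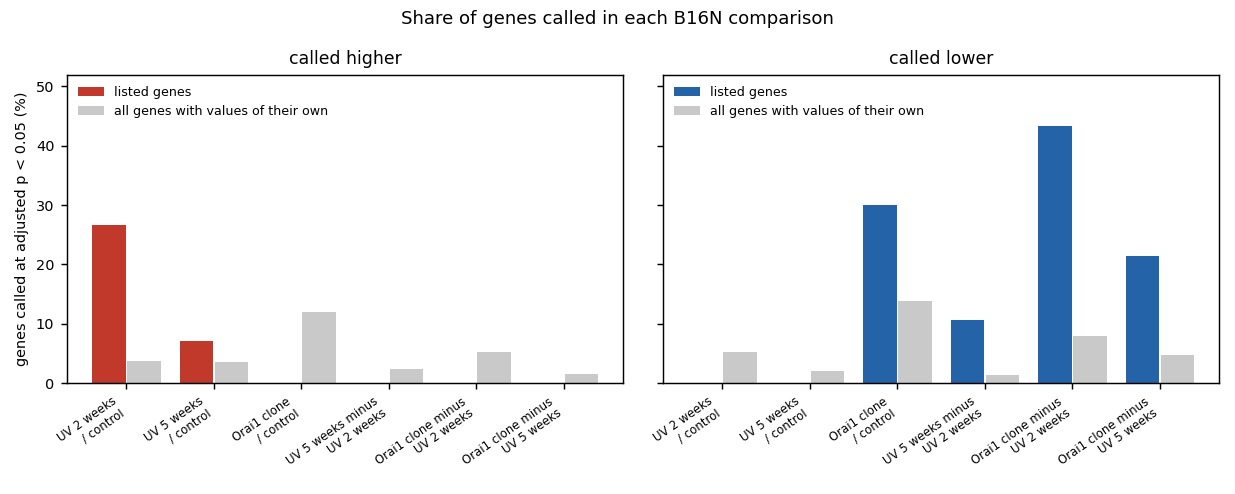
The y axis gives the percentage of genes called higher (left panel) or lower (right panel) in each of 6 comparisons, for the listed genes (coloured bars) and for all genes with values of their own (grey bars). The coloured bar for higher calls at 2 weeks reaches 26.7% beside 3.71%, and that for lower calls in the clone 30% beside 13.9%.

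Across the 3 comparisons, 16 of the 30 members with values of their own were called at least once. Of the 28 with such values in all 3 tables, 13 were called in none. The matching shares of all genes were not computed, so these counts only describe the members. In the clone alone 12% of all genes were called higher and 13.9% lower. Pdk3, a relative of Pdk1, was not called in any comparison and stood at -0.12 at 2 weeks by the authors' deposited table (SE 0.17), and the difference between these genes was not tested. The collagen prolyl hydroxylase genes P4ha1 and P4ha2 were not called in any comparison, with P4ha2 at 1.16 (SE 0.59) after 2 weeks by the authors' deposited table. Pfkm, Egln3, Car9 and Ankrd37 had an SE above 1 in each comparison, and apart from Car9 at 2 weeks none was called. Gapdh, Pgk1, Eno1, Aldoa, Ldha, Tpi1 and Pgam1 have near-identical processed copies in the mouse genome, and as the counting is not given their values are uncertain to that extent.

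Further genes of these pathways were examined as lists. Of 41 other hypoxia-responsive genes, 19, 18 and 22 had values of their own in the 2-week, 5-week and clone tables. At 2 weeks 4 of 19 were higher and none lower, where 3.71% and 5.28% of all genes were, and without adjustment 6 were higher and 0 lower. The 4 were Ero1a, an oxidase of protein folding in the endoplasmic reticulum (0.56, SE 0.094), the mitochondrial protein gene Higd1a (0.84, SE 0.19), the transcription repressor gene Bhlhe40 (0.94, SE 0.25) and Fam162a (1.08, SE 0.29) by the authors' deposited table. At 5 weeks 3 of 18 were higher, where 3.53% of all genes were, namely Ero1a (0.99, SE 0.13), the cytokine gene Mif (0.93, SE 0.17) and Bhlhe41 (0.53, SE 0.15) by the authors' deposited table, and none was lower (4 and 0 without adjustment).

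In the clone 5 of 22 genes of the list were higher and 2 lower, where 12% and 13.9% of all genes were, and without adjustment 6 were higher and 4 lower. Ero1a fell by 0.91 (SE 0.10, adjusted p = 3.30e-16) and Higd1a by 0.71 (SE 0.23, adjusted p = 0.0147) according to the authors' deposited table. Mif rose by 1.26 (SE 0.18), the amino acid sensing GTPase gene Rragd by 1.38 (SE 0.25), Bhlhe41 by 0.69 (SE 0.12) and Bhlhe40 by 0.69 (SE 0.27) according to the authors' deposited table. Car12, another carbonic anhydrase gene, was called higher by the authors' deposited table with an SE of 1.3 (adjusted p = 0.00284). The median of the list was 0.15 in the clone, where that of the members was -0.24.

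**Figure D4:**
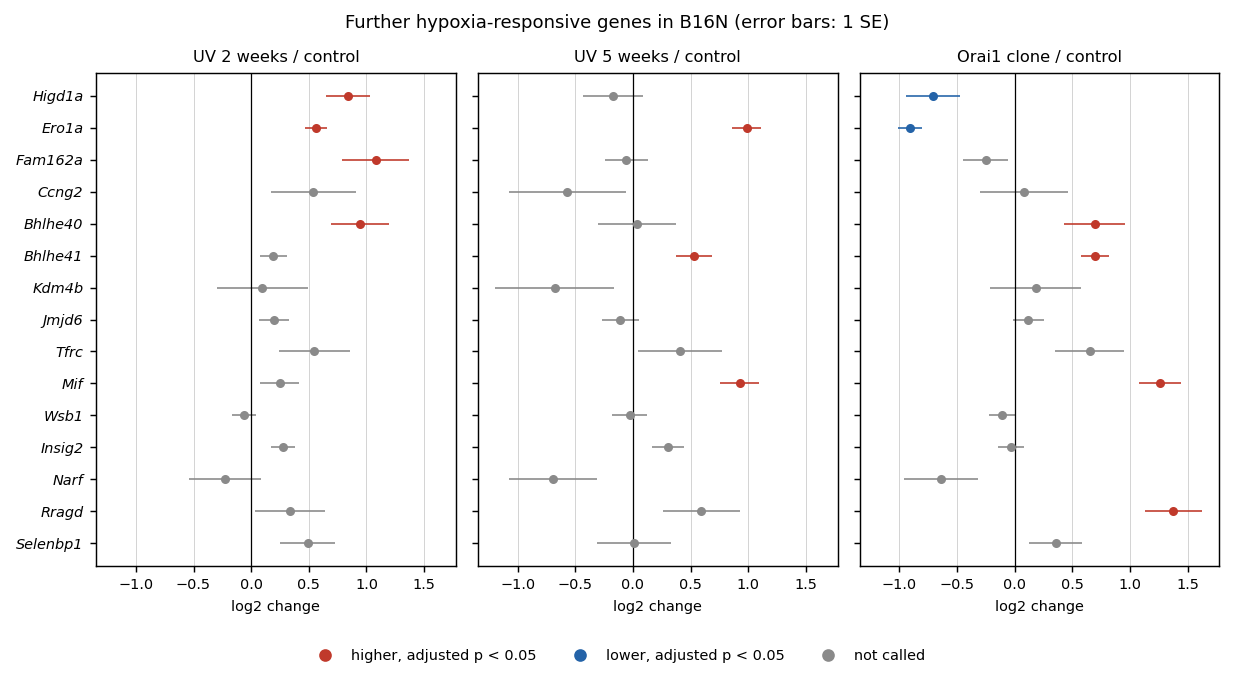
The log2 change over the B16N control is plotted on the x axis for further hypoxia-responsive genes with values of their own, for UV at 2 weeks (left), UV at 5 weeks (middle) and the Orai1 clone (right), with bars of 1 SE. Ero1a lies to the right of 0 at both UV times and to the left in the clone, while Mif and Bhlhe41 lie to the right in the clone, and values with an SE above 1 are left out.

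Genes of pyruvate entry into mitochondria were called in both directions at 2 weeks. There 1 of 11 was higher, the pyruvate carrier gene Mpc2 (0.50, SE 0.11, adjusted p = 5.02e-04), and 1 was lower, Dld, a subunit of the dehydrogenase complex (-0.32, SE 0.10, adjusted p = 0.0262), by the authors' deposited table, where 3.71% and 5.28% of all genes were. Without adjustment 1 was higher and 3 were lower at 2 weeks, the other two being Pdha1 (-0.22, SE 0.092) and Dlat (-0.21, SE 0.10) by the authors' deposited table. In the clone 3 of 11 were lower, the dehydrogenase complex genes Dld (-0.49, SE 0.12), Dlat (-0.38, SE 0.11) and Pdhx (-0.41, SE 0.13), and none was higher by the authors' deposited table, as was the case without adjustment (3 lower, 0 higher), where 13.9% and 12% of all genes were called. None of 10 was called at 5 weeks, where 3.53% and 1.98% of all genes were called higher and lower. Without adjustment 2 of the 10 were higher and 0 lower. Of further genes of glycolysis and glycogen, 1 of 12 was higher and none lower at 2 weeks (1 and 0 without adjustment), where 3.71% and 5.28% of all genes were. None of 13 was called at 5 weeks (2 higher and 0 lower without adjustment), where 3.53% and 1.98% of all genes were. In the clone 1 of 13 was higher and 2 lower (2 and 2 without adjustment), near the 12% and 13.9% of all genes. Pgm1, a phosphoglucomutase, rose at 2 weeks (0.36, SE 0.10) and fell in the clone (-0.44, SE 0.14), where the glycogen synthase gene Gys1 fell as well (-0.71, SE 0.24) and the transporter gene Slc2a8 rose (0.56, SE 0.20) by the authors' deposited tables.

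Of the HIF pathway itself, 8, 9 and 9 other genes had values of their own. None was called after UV, where 3.71% and 5.28% of all genes were called higher and lower at 2 weeks. At 5 weeks these shares were 3.53% and 1.98%, so among so few genes the lack of calls says little. Without adjustment 1 was higher and 1 lower at 2 weeks, and 2 were higher and 0 lower at 5 weeks. In the clone 1 of 9 was lower and 0 higher (1 and 1 without adjustment), where 13.9% and 12% of all genes were, so the lower calls were near that share. It was Eloc, the elongin C subunit of the ligase that removes Hif1a, which fell by 0.76 (SE 0.13, adjusted p = 3.88e-07) according to the authors' deposited table. The median of the 9 was 0.25. Vhl, the substrate receptor of that ligase, stood at 0.15 (SE 0.22) and Egln2 at -0.07 (SE 0.15) in the clone by the authors' deposited table.

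In the human lines ALDOC was the member with a row. Both human tables hold the same 420 symbols, and 351 of the WM983 rows stand at the lowest p of that table, 5.00e-05, while the lowest p for UACC257 was 0.0257. They therefore hold a selection of genes, and neither an adjustment nor a background share could be computed. The direction of the human values could not be checked, so they are given with the deposited sign. ALDOC had a log2 value of 1.22 (p = 5.00e-05) for WM983 and of -0.31 (p = 0.0861) for UACC257 by the authors' deposited tables, and the difference between the lines was not tested. The median absolute log2 value of all 420 rows was 1.22 for WM983 and 0.19 for UACC257. In B16N at 2 weeks Aldoc stood at 1.22 after the turn in sign (SE 0.44, adjusted p = 0.066) by the authors' deposited table, and was not called. Because the direction of the human values is unknown, whether mouse and human values went the same way cannot be told.

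Of the further lists, BSG, the partner protein of the lactate exporters, had -1.03 for WM983 (p = 5.00e-05) and 0.04 for UACC257 (p = 0.784) by the authors' deposited tables. WSB1, a ligase subunit gene that low oxygen induces, had 1.26 for WM983 (p = 5.00e-05) and -0.06 for UACC257 (p = 0.662) by the authors' deposited tables. Mouse Wsb1 was not called in any B16N comparison.

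The promoter of ALDOC is shown because ALDOC is the member with a row in the human tables. The 250 bases before its start in RefSeq (GRCh38.p14, minus strand) were searched on both strands for ACGTG and GCGTG, the core of the hypoxia response element, which also lies within E-box letters. They held 5 matches in 4 stretches, and 43.2% of 35116 RefSeq promoters held a match in a window of that length. Capitals mark the matches, which are a description of letters and not binding sites, and the number is the distance of the match to the start.
ALDOC 240, chr17:28577116-28577145: aagtgcccggCACGTGgtaaagggattgtg
ALDOC 108, chr17:28576987-28577016: cccgcctctgaggGCGTGgtcttgccccgg
ALDOC 45, chr17:28576924-28576953: ggggcatgcaggcCACGCccccggaggagt
ALDOC 28, chr17:28576907-28576936: cccccggaggagtCACGTagctctgcgaca
In the match 240 bases before the start, the letters read the same on both strands, so it counts for 2 of the 5.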

How the data were processed

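The authors deposited 5 tables of comparisons whose rows give a symbol, then a log2 fold change, the test's statistic (called the score here) and its p-value, per the file headers. The genome build GRCm38 is named in the submitters' processing notes; the aligner, the counting and the test are not given in the sources used here, nor is the build behind the human tables. The members and gene lists were chosen with earlier results of these data known.

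Of the mouse symbols, 1357 had a row in a single table, and all of them had a negative deposited log2 value, as genes without reads in the control would with the control on top, so the sign was turned. The deposited p followed from the score under a normal distribution, two-sided, within 5.00e-08, so log2 over score gave the SE. Rows without a symbol (1 per mouse table) or a p-value (3 for the clone) were left out. Without counts or levels no count model was fitted. Differences of 2 changes were tested with a normal test, with both SE added in squares. That counts the control's spread in each. Benjamini-Hochberg adjustment ran over each whole table or all genes free of shared values in both tables. The steps were tested on simulated data with normal noise of each row's own SE, drawn separately for each table and without a common control. This checks that the steps run as meant, and cannot show whether the SE covers the spread between libraries. For want of mouse sequence, the promoter search was run on ALDOC alone, chosen as the member with human rows. Members called in any comparison are named with values, and of the other lists up to 5 called genes per direction with an SE of at most 1. Car12, Sox10, members near the threshold, uncalled genes and the human rows were added after their values were seen. Alternatives were fold minimums of 1.5 and 2, a stricter adjusted p (0.01), rows of SE up to 0.5 alone, the median of rows of SE at most 0.3 set to 0, and shared values included. Python 3.11.15, numpy 2.4.6, pandas 2.3.3, scipy 1.17.1 and matplotlib 3.10.9 were used.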

Additional observations from a re-analysis of the deposited data

Results flagged for a closer look

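Slc2a1, Ndrg1 and Pkm stand out because their changes differed between the 2 UV times by the test of the difference itself. The differences of the log2 changes, 5 weeks minus 2 weeks, were -0.93 for Slc2a1, -0.63 for Ndrg1 and -0.47 for Pkm. For Slc2a1 and Ndrg1 the values lay on opposite sides of 0 at the 2 times, and for Pkm both were above it. No member was called higher at 5 than at 2 weeks, and Ddit4 had the nearest adjusted p among positive differences, with a difference of 0.73. Both times are 1 library each.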

How the results depend on the processing

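Of 75 alternative values of the counts and medians, 62 stayed within 1.5 times the main count or, for medians, within the median SE of the members, and the other 13, all counts, did not. A 2-fold minimum left 2 members higher at 2 weeks, 1 higher at 5 weeks, 4 lower in the clone, 0 lower at 5 than at 2 weeks and 6 lower in the clone than at 2 weeks. A 1.5-fold minimum left 4 higher at 2 weeks and 1 at 5 weeks. A stricter adjusted p of 0.01 left 5 higher at 2 weeks, 0 lower at 5 than at 2 weeks and 8 lower in the clone than at 2 weeks, so that none of the differences between UV times held at that threshold. With shared values included, 2 members were lower at 2 weeks, 1 lower at 5 weeks and 1 higher in the clone, where none was without them. With the median of precise rows set to 0, 9 members were higher at 2 weeks and 7 lower in the clone. The members' median kept its sign under the alternatives run, with 0.04 as the value nearest to 0 (5 weeks, SE at most 0.5). No paired analysis was possible because each group has 1 sample, and no replicate could be left out for the same reason. Depth is unknown. Members of SE above 1 were measured with little precision, and of these Car9 was called, at 2 weeks; the setting of SE at most 0.5 leaves out its row, so it was not checked there.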
